A study of Mus musculus with 27 samples.

Results

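Transcripts of 10 genes of the BCL2 family were followed through 27 RNA libraries of mouse CD4+ and CD8+ T cells. The genes were taken by name out of 26802 features in the count table, with earlier results of these data known. They were the pro-survival genes Bcl2, Bcl2l1 (which encodes BCL-XL) and Mcl1, the BH3-only genes Bcl2l11 (BIM), Bbc3 (PUMA), Pmaip1 (NOXA), Bid and Bad, and the effectors Bax and Bak1. All 10 were detected in every library and all 10 passed the filter on low counts, which left 10493 genes for testing.

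BCL2 family proteins decide whether the outer mitochondrial membrane is opened, which releases cytochrome c and starts the caspase cascade. BAX and BAK open the membrane, pro-survival proteins hold them in check, and BH3-only proteins neutralise the pro-survival proteins or activate the effectors directly. In T cells the family is best known for BCL2 and MCL1 in cytokine-dependent survival of resting cells, for BCL-XL after CD28 costimulation, and for BIM in the death of thymocytes and activated cells.

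The cells came from pooled lymph node and spleen of C57BL/6 (B6) mice and were enriched with magnetic beads by removal of other cells. WT mice were compared with Raptor KO mice, whose floxed Rptor alleles are deleted by Cre under the Cd4 promoter, and with Rictor KO mice made in the same way for Rictor. Raptor and Rictor are the defining subunits of the kinase complexes mTORC1 and mTORC2. Each culture ran for 48 h, either resting with IL-7 at 5 ng/ml, or stimulated on plates coated with anti-CD3 and anti-CD28 at 10 µg/ml, for which no IL-7 is listed. Both subsets of WT and of Raptor KO cells were cultured both ways, Rictor KO cells were CD8+ and stimulated, and each of the 9 groups had 3 libraries numbered 1 to 3. Whether the 3 libraries of a group came from separate mice is not stated, so p-values measure the spread between libraries, which may be technical. Cells binding MFG-E8 or taking up the dye 7-AAD were removed by sorting before RNA extraction, so the values describe cells that had not been marked as dying. In bulk RNA of this kind, fewer cells expressing a gene and less of its RNA per cell cannot be told apart.

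The libraries held 8640699 to 16817347 counts, of which 81.1% to 88.4% fell on the ribosomal RNA gene Rn45s. The other features kept 1522199 to 2515583 counts. After scaling between libraries by TMM factors of 0.513 to 1.60, 1 count was worth 0.265 to 0.891 CPM. CPM is the level used below, a gene's count scaled to the counts of the tested genes, so that libraries compare. Pmaip1 and Bad rested on 1 to 19 counts per library, Bbc3 on 6 to 44 and Bid on 5 to 79, and their errors are wide for that reason. Cd4 stood at 171 to 372 CPM in CD4+ libraries and at 0 to 5.49 in CD8+ libraries. Rptor in Raptor KO cells differed from WT by -0.34 to -0.21 on the log2 scale in the 4 comparisons and Rictor in Rictor KO cells by -0.20, none of them past the test. The genotypes therefore rest on the labels, and reads outside the floxed part would not report the deletion.

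In GRCm38 (GENCODE M21) Bcl2 (ENSMUSG00000057329) spans chr1:106538178-106714274, Bcl2l1 (ENSMUSG00000007659) chr2:152780668-152831728 and Mcl1 (ENSMUSG00000038612) chr3:95658788-95663176. Of the BH3-only genes Bcl2l11 (ENSMUSG00000027381) spans chr2:128126038-128162547, Bbc3 (ENSMUSG00000002083) chr7:16308393-16318205, Bid (ENSMUSG00000004446) chr6:120891930-120916853 and Bad (ENSMUSG00000024959) chr19:6941861-6951899. The effector Bax (ENSMUSG00000003873) spans chr7:45461697-45466898 and Bak1 (ENSMUSG00000057789) chr17:27019810-27029009. Counts cover all exons of a gene, so isoforms such as the long and short forms of BCL-X, MCL1 or BIM were not told apart.

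The sequences upstream of 5 members are shown first, and that of Mcl1, which was also called in comparisons below, is not. They are the 250 bases before a RefSeq transcription start (build GRCm38.p6, 5′ to 3′ on the gene's strand, no annotated exon inside), and capitals mark a motif match. 9 of the 10 members matched a RefSeq window, 15 windows in all.
Bcl2, chr1:106714291-106714540, minus strand: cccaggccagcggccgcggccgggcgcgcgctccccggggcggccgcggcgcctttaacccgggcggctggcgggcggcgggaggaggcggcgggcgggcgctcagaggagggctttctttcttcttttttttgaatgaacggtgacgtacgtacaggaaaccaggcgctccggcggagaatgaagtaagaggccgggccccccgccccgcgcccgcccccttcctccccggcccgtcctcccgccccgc
Bcl2l1, chr2:152831729-152831978, minus strand: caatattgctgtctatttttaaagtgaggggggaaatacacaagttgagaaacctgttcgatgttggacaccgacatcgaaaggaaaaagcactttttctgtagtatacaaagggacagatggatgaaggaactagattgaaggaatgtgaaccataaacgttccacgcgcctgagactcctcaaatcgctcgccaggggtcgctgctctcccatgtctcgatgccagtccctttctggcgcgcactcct
Bcl2l11, chr2:128125788-128126037, plus strand: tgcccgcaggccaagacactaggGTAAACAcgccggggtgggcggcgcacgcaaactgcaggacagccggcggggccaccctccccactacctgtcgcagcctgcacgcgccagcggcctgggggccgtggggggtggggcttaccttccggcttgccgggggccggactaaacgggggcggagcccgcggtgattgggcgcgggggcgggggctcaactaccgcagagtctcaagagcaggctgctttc
Bbc3, chr7:16310011-16310260, plus strand, before a start inside the gene: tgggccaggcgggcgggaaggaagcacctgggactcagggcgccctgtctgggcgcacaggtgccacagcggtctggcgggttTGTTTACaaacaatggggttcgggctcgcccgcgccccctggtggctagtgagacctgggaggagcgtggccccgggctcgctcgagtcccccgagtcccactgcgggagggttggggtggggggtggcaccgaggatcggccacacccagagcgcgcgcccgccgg
Bax, chr7:45466899-45467148, minus strand: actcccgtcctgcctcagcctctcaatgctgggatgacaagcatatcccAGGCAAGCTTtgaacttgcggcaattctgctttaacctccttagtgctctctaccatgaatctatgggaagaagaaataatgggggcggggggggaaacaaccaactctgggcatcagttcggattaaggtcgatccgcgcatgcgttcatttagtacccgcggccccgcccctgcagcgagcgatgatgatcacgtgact

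Motifs were searched on both strands for factors known to act on this family. The FOXO site GTAAACA lay in the windows of Bcl2l11 (forward, beginning 227 bases before the start) and Bbc3 (as its reverse complement, 167 bases before), and in 3.2% of the 32851 mouse windows. A p53 half-site lay in the Bax window, 201 bases before the start, and in 7.1% of all windows. An NF-kB site lay in another Bcl2l1 window (chr2:152830718-152830967) and in another Bbc3 window (chr7:16309333-16309582), neither printed, and in 3.9% of all windows. The Bcl2 window and the Bcl2l1 window shown held none of the motifs searched, which also included the GAS element TTCNNNGAA (7.0% of all windows), the E2F sites TTTGGCGC and TTTCCCGC (1.3%) and the C/EBP-ATF element TGATGNAAT (0.8%). No motif was found either in the windows of Mcl1, Bid, Bad and Bak1, or in the remaining windows of Bcl2l1, Bcl2l11 and Bbc3, none of them printed. These matches describe letters in a window and are not evidence of binding. The Bcl2 and Bbc3 windows were rich in G and C (74.8% and 72.4%), as was that of Bcl2l11 (72%), while those of Bax (54.0%) and Bcl2l1 (47.6%) were less so.

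In resting T cells the pro-survival transcripts were Mcl1 and Bcl2, with little Bcl2l1. On a per-length scale, WT CD4+ cells at rest held 66.7 ± 8.05 CPM per kilobase of exon of Mcl1 (SD, n = 3 here and below), 26.6 ± 13.4 of Bcl2 and 1.07 ± 0.356 of Bcl2l1. Among the pro-death genes the highest per-length levels in these cells were those of Bax at 8.23 ± 1.17, Bcl2l11 at 7.27 ± 1.13 and Bbc3 at 7.13 ± 1.46 CPM per kilobase. Those 3 did not differ beyond their spread, and Bak1 (2.76 ± 0.957), Bid (1.86 ± 0.866), Bad (1.83 ± 0.0705) and Pmaip1 (0.588 ± 0.346) stood below them. Resting WT CD8+ cells had the same order of the 3 pro-survival genes, at 55.8 ± 2.75, 20.2 ± 9.73 and 1.06 ± 0.279 CPM per kilobase for Mcl1, Bcl2 and Bcl2l1.

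**Figure D1:**
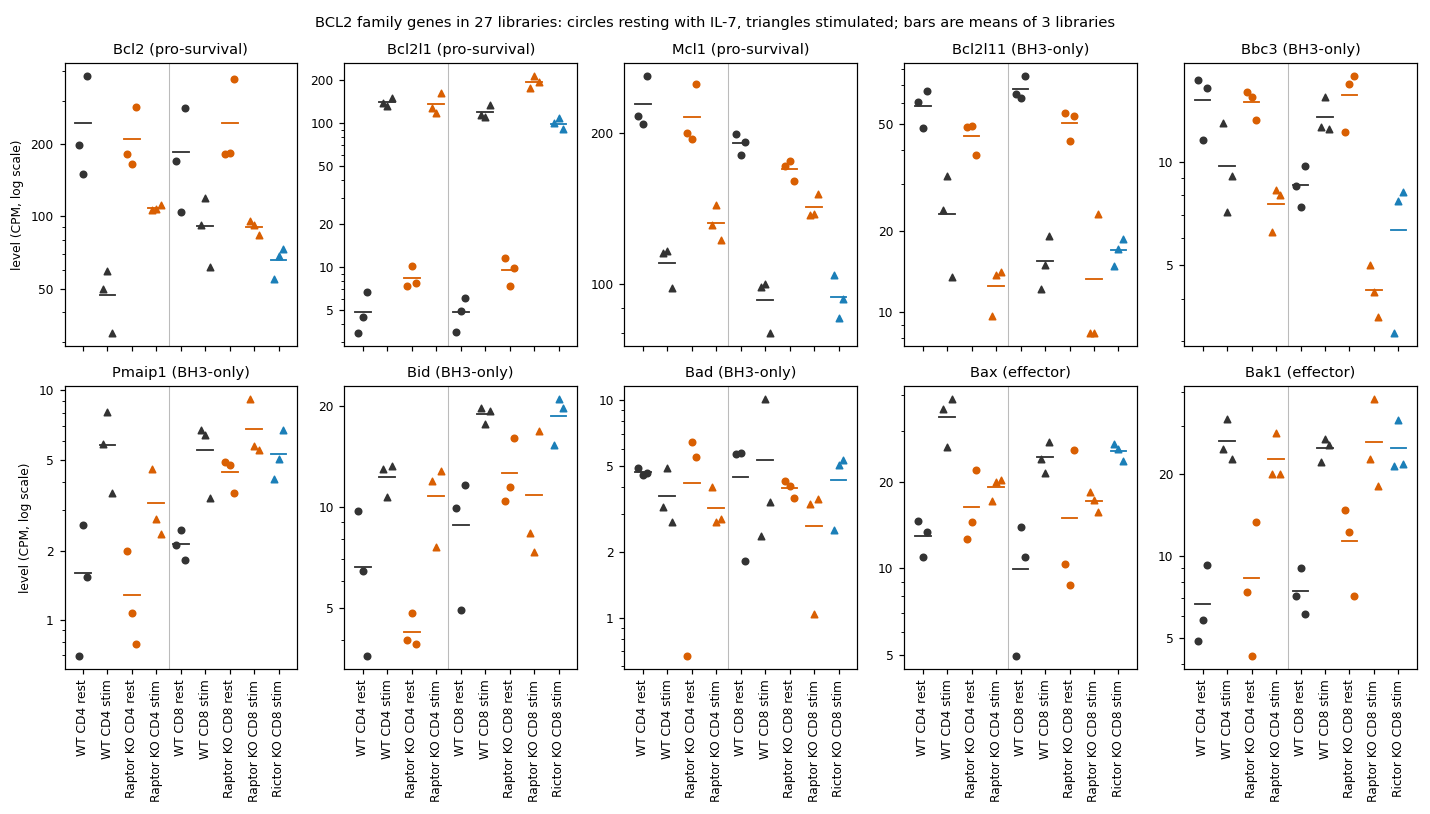
Level of each gene (CPM, log axis) in every library of the 9 groups; circles are resting and triangles stimulated cultures, black WT, orange Raptor KO and blue Rictor KO, and horizontal bars are means of 3 libraries. Bcl2l1 rises from 3.48–11.6 CPM in the 12 resting libraries to 90.5–213 in the 15 stimulated ones, and Bbc3 is lowest in stimulated Raptor KO and Rictor KO CD8+ cells.

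After stimulation Bcl2l1 joined Mcl1 as a main pro-survival transcript. Bcl2l1 rose by more than an order of magnitude in all 4 backgrounds, while Bcl2 and Bcl2l11 fell in all 4, and the effector Bak1 rose in all 4. In WT CD4+ cells 9 of the 10 genes passed the edgeR quasi-likelihood test with Benjamini-Hochberg adjustment (adjusted p under 0.05), 5 higher and 4 lower, where 64.9% of all tested genes did (32.4% higher, 32.5% lower). In WT CD8+ cells 8 passed, 5 higher and 3 lower, against 62.8% of all genes (32% higher, 30.8% lower). In Raptor KO CD4+ cells 7 passed, 3 higher and 4 lower, against 52% (27.9% higher, 24.1% lower), and in Raptor KO CD8+ cells 5, of which 2 higher and 3 lower, against 55.6% (29.5% higher, 26% lower). With most genes changed, these counts stand near the background and say little about the family as such, and the direction and size of each change carry the description. The median log2 fold change over the 10 genes was 0.28, 0.84, -0.08 and -0.18 in these 4 comparisons, against -0.03, 0.00, 0.04 and 0.03 over all genes tested. With Rn45s kept in the totals, the split of all called genes moved from 3397 higher and 3414 lower to 3103 and 1887 in WT CD4+ cells, from 3363 and 3229 to 4527 and 1107 in WT CD8+ cells, and from 3099 and 2733 to 2801 and 1213 in Raptor KO CD8+ cells. In Raptor KO CD4+ cells it moved the other way, from 2924 higher and 2529 lower to 1571 and 1690. Among the 10 genes the split was then 5 higher and 2 lower in WT CD4+ cells and 6 and 1 in WT CD8+ cells. It was 2 and 3 in Raptor KO CD8+ cells and 2 and 2 in Raptor KO CD4+ cells.

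Other properties of the libraries moved with stimulation too. Mitochondrial rRNA took 17.8% to 23.0% of the counts outside Rn45s in resting and 9.16% to 13.0% in stimulated WT CD4+ libraries, and 13.9% to 15.2% and 7.20% to 10.1% in WT CD8+ libraries. Protein-coding genes took 24.2% to 33.0% at rest and 49.9% to 62.5% after stimulation in WT CD8+ libraries, without overlap, and 27.6% to 45.2% and 38.9% to 63.6% in WT CD4+ libraries. The summed level of 5 T cell marker genes went from 587–614 to 373–421 CPM in WT CD4+ and from 629–682 to 349–382 CPM in WT CD8+ cells, with none of the 5 at 0. Summed myeloid markers (6 genes) went from 34.1–52.4 to 14.3–19.0 CPM and from 34.5–53.2 to 26.8–34.8 CPM, and summed B cell markers (4 genes) from 6.26–11.6 to 1.95–2.75 CPM and from 6.71–17.2 to 0.788–2.55 CPM. The part of these properties in the stimulation results was not tested.

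Bcl2l1, the pro-survival gene known to be induced by CD28, stood at 3.48, 4.52 and 6.68 CPM in resting WT CD4+ libraries 1 to 3 and at 139, 131 and 149 CPM after stimulation. In WT CD8+ cells it went from 3.55, 4.93 and 6.10 CPM to 114, 111 and 134 CPM. The groups were far apart in both subsets. The log2 fold changes were 4.78 ± 0.21 (SE; 27.4-fold) in WT CD4+ and 4.59 ± 0.21 (24.1-fold) in WT CD8+ cells, with adjusted p of 1.8e-22 and 2.4e-21. In Raptor KO cells they were 3.98 ± 0.19 (15.8-fold) in CD4+ and 4.32 ± 0.19 (20.0-fold) in CD8+ cells. The smaller factors went with higher resting levels of 7.34, 10.2 and 7.82 CPM in Raptor KO CD4+ and 11.6, 7.43 and 9.80 CPM in Raptor KO CD8+ libraries. Each resting Raptor KO library was above every resting WT library of its subset, but resting levels rested on 5 to 19 counts and the difference between genotypes at rest did not pass the test (adjusted p = 0.59 in CD4+ and 0.26 in CD8+ cells).

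Bcl2, the founding pro-survival gene, varied widely between resting libraries. It stood at 198, 150.4 and 383 CPM in resting WT CD4+ libraries and at 50.0, 59.3 and 32.7 CPM after stimulation, without overlap, for a log2 change of -2.38 ± 0.41 (adjusted p = 4.6e-05). In WT CD8+ cells it went from 170.2, 104 and 281 CPM to 91.8, 119 and 61.7 CPM, and the groups overlapped. Library 3 held the highest resting Bcl2 in all 4 resting groups (383, 281, 285 and 369.9 CPM) and the lowest stimulated Bcl2 in both WT groups. The WT CD8+ change of -1.04 ± 0.39 (adjusted p = 0.026) lost the test without resting library 3 (adjusted p = 0.22), stimulated library 1 (0.059) or stimulated library 3 (0.12), and with Rn45s kept in the totals (0.44).

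In Raptor KO cells Bcl2 fell from 182, 164 and 285 CPM to 107, 107 and 111 CPM in CD4+ libraries, a log2 change of -0.96 ± 0.39 with adjusted p = 0.047. That call was lost without any 1 of 5 of the 6 libraries (adjusted p of 0.060 to 0.21) and stayed without resting library 2. In Raptor KO CD8+ cells Bcl2 fell from 181, 184 and 369.9 CPM to 95.4, 92.0 and 83.9 CPM, a change of -1.43 ± 0.39 (adjusted p = 0.0047), which stood at -0.97 and adjusted p = 0.053 without resting library 3. The stimulated Raptor KO libraries were closely grouped, unlike the resting ones.

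Mcl1, whose protein is short-lived and needed throughout T cell life, fell about as much in the WT subsets. In WT CD4+ cells it went from 216, 208 and 259 CPM to 115, 116 and 98.5 CPM, and in WT CD8+ cells from 199, 181 and 192 CPM to 98.9, 100.1 and 80.04 CPM. Neither pair of groups overlapped, and the log2 changes were -1.05 ± 0.13 and -1.04 ± 0.13 (adjusted p of 5.8e-09 and 1.1e-08). Raptor KO CD4+ cells went from 199.6, 195 and 250.2 CPM to 131, 144 and 123 CPM, a change of -0.70 ± 0.13 (adjusted p = 2.8e-05). Raptor KO CD8+ cells went from 172, 176 and 160.4 CPM to 137, 138 and 151 CPM, which did not overlap but gave -0.25 ± 0.13 and adjusted p = 0.11. Scaling to library totals with Rn45s, which moved the median of all genes by 0.28, 0.77, -0.12 and 0.30 in the 4 stimulation comparisons, ended the Mcl1 calls in WT CD4+ (-0.82, adjusted p = 0.065), WT CD8+ (-0.28, 0.56) and Raptor KO CD4+ cells (-0.81, 0.094).

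The balance can be read within each library as shares of the 3 pro-survival genes per exon base, which do not depend on scaling between libraries. In WT CD4+ cells Bcl2l1 made up 1.12 ± 0.204% of the 3 at rest and 45.0 ± 4.58% after stimulation, Bcl2 went from 27.1 ± 7.23% to 7.58 ± 1.95%, and Mcl1 from 71.8 ± 7.26% to 47.4 ± 2.67%. In WT CD8+ cells the Bcl2l1 share went from 1.38 ± 0.342% to 41.5 ± 6.86%, and that of Bcl2 from 25.4 ± 8.74% to 15.6 ± 4.14%. Stimulated Raptor KO cells had Bcl2l1 shares of 36.9 ± 5.10% (CD4+) and 45.0 ± 2.6% (CD8+), and stimulated Rictor KO CD8+ cells 38.4 ± 3.21%. No stimulated library had under 32.3% Bcl2l1 and no resting library over 3.48%.

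**Figure D2:**
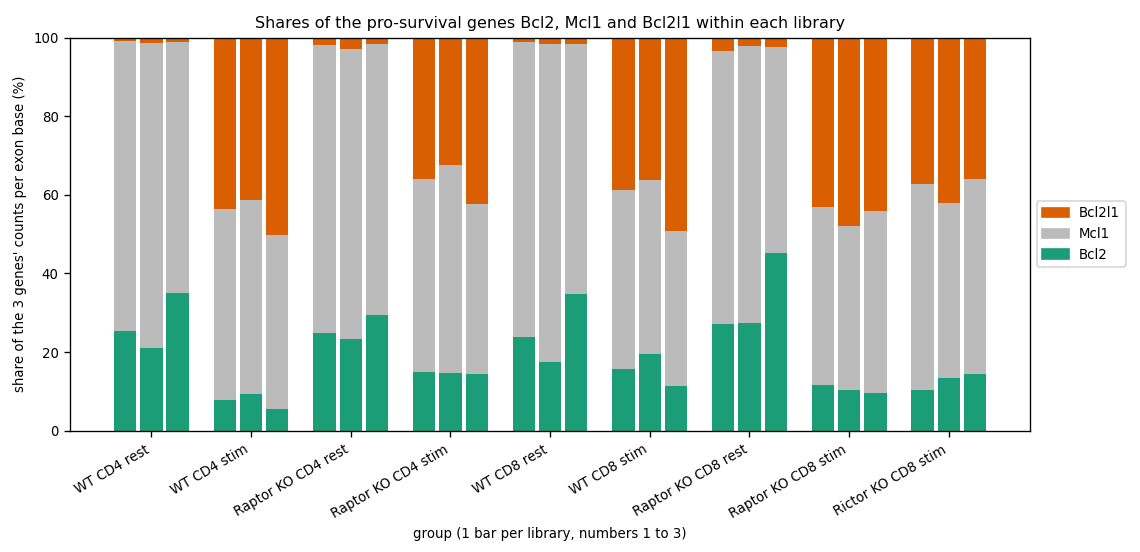
Share of Bcl2, Mcl1 and Bcl2l1 in their summed counts per exon base (percent), 1 stacked bar per library in group order. Bcl2l1 (orange, top) fills 0.887% to 3.48% of the resting bars and 32.3% to 50.1% of the stimulated ones.

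The per-length ratio of Bcl2l1 to Bcl2 was 0.0433 ± 0.0145 in resting WT CD4+ cells and 6.35 ± 2.45 after stimulation, and 0.0598 ± 0.0299 and 2.89 ± 1.30 in WT CD8+ cells. In stimulated Raptor KO cells the order of the subsets was the other way round, at 2.51 ± 0.367 in CD4+ and 4.29 ± 0.542 in CD8+ cells, and these ranges did not overlap (2.20 to 2.91 and 3.66 to 4.62). The WT ranges did not overlap either but nearly met, with 4.40 to 9.09 in CD4+ and 1.85 to 4.35 in CD8+ libraries. No test of this ratio was made.

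The BH3-only genes did not move as a block: 1 fell everywhere, 1 changed with genotype in CD8+ cells, 2 rose in WT cells, and Bad did not pass any test of stimulation. Bcl2l11, the BH3-only gene most tied to T cell deletion, went from 60.5, 48.4 and 66.2 CPM to 24.0, 32.1 and 13.5 CPM in WT CD4+ libraries. In WT CD8+ libraries it went from 64.6, 62.4 and 75.6 CPM to 12.2, 15.0 and 19.2 CPM. No stimulated library reached a resting one, and the log2 changes were -1.39 ± 0.26 and -2.10 ± 0.27 (adjusted p of 3.0e-05 and 6.6e-08). The fall was -1.86 ± 0.30 in Raptor KO CD4+ and -1.80 ± 0.29 in Raptor KO CD8+ cells, and the call held under all 14 alternatives in each of the 4 backgrounds.

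Bbc3, the p53 and FOXO target PUMA, responded differently by genotype in CD8+ cells, as tested below. Its response did not differ past the edgeR test between WT subsets (adjusted p = 0.12) or between genotypes in CD4+ cells (0.74). In WT CD4+ libraries it went from 17.4, 11.6 and 16.4 CPM to 13.0, 7.13 and 9.08 CPM, which overlapped (log2 change -0.68 ± 0.29, adjusted p = 0.038). That call was lost in 7 of 14 alternatives, including DESeq2 (adjusted p = 0.074) and leaving out resting library 1 (0.13), resting library 3 (0.11), stimulated library 2 (0.17) or stimulated library 3 (0.11). In WT CD8+ libraries it went from 8.51, 7.39 and 9.76 CPM up to 12.6, 15.5 and 12.4 CPM, without overlap but not past the test (0.63 ± 0.31, adjusted p = 0.072, and 1.39 with 0.0079 when Rn45s was kept in the totals). In Raptor KO CD8+ libraries it went from 12.2, 16.9 and 17.8 CPM down to 5.02, 4.18 and 3.53 CPM, a fall of 1.90 ± 0.35 on the log2 scale (adjusted p = 1.4e-05), and Raptor KO CD4+ cells gave -0.99 ± 0.31 (adjusted p = 0.0077). All Raptor KO resting libraries of both subsets were above all stimulated ones.

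Bid, which links death receptors to mitochondria, rose in WT CD4+ cells by 0.95 ± 0.34 (from a mean of 6.60 ± 3.07 to 12.3 ± 1.39 CPM, adjusted p = 0.014). It rose by 1.06 ± 0.31 in WT CD8+ cells (8.82 ± 3.47 to 18.9 ± 1.07 CPM, adjusted p = 0.0031) and by 1.34 ± 0.39 in Raptor KO CD4+ cells (4.24 ± 0.496 to 10.8 ± 2.79 CPM, adjusted p = 0.0039). In Raptor KO CD8+ cells Bid stood at 10.4, 11.5 and 16.0 CPM at rest and at 8.37, 7.32 and 16.9 CPM after stimulation, with no change past the test (-0.11 ± 0.32). The WT CD4+ call was lost without resting library 3 (0.62, adjusted p = 0.15) and stood at adjusted p = 0.050 without stimulated library 3.

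Pmaip1, the NOXA gene, rose from 0.696, 2.58 and 1.54 CPM to 5.84, 8.02 and 3.58 CPM in WT CD4+ cells, on 1 to 4 counts at rest and 9 to 18 after stimulation (1.76 ± 0.54, adjusted p = 0.0044). Pmaip1 reached the minimum of the filter on low counts in 11 libraries, all of them stimulated. It was therefore tested only through the cultures where it is high, and its calls as higher partly follow from the filter. In WT CD8+ cells it rose from 2.13, 2.46 and 1.83 CPM to 6.70, 6.42 and 3.39 CPM (1.31 ± 0.53, adjusted p = 0.029), a call lost in 5 of 13 alternatives. Those were the fit with no filter (adjusted p = 0.055) and the fits without resting library 1 (0.062), resting library 3 (0.090), stimulated library 1 (0.096) or stimulated library 2 (0.066). Raptor KO cells gave 1.27 ± 0.64 in CD4+ and 0.55 ± 0.46 in CD8+ cells, neither past the test. Bad, whose product is controlled mainly by phosphorylation, had group means of 2.64 to 5.31 CPM, and its 95% intervals for stimulation reached from -1.88 to 1.32 on the log2 scale over the 4 backgrounds, so sizeable changes were not detectable at this depth.

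The effectors rose in WT cells. Bax went from 14.6, 11.0 and 13.4 CPM to 35.7, 26.3 and 38.8 CPM in WT CD4+ libraries and from 4.97, 14.0 and 11.0 CPM to 24.0, 21.4 and 27.4 CPM in WT CD8+ libraries. Neither pair overlapped, and the log2 changes were 1.38 ± 0.26 and 1.31 ± 0.29 (adjusted p of 1.3e-05 and 0.00015). In Raptor KO cells Bax gave 0.25 ± 0.28 in CD4+ and 0.25 ± 0.30 in CD8+ cells, both with overlapping groups and neither past the test. Without resting library 3, which held 25.8 CPM against 10.4 and 8.78 in the others, the Raptor KO CD8+ change was 0.86 with adjusted p = 0.021. Part of the Bax exons, 192 bases, is shared on the same strand with the predicted gene Gm45808, so reads there could be assigned to either.

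Bak1 went from 4.87, 5.81 and 9.24 CPM to 24.7, 31.6 and 22.6 CPM in WT CD4+ cells and from 7.09, 9.03 and 6.10 CPM to 22.1, 26.8 and 25.5 CPM in WT CD8+ cells. Every stimulated library was above every resting one, in Raptor KO cells too. The log2 changes were 1.92 ± 0.32 and 1.75 ± 0.32 in WT CD4+ and CD8+ cells, and 1.5 ± 0.33 and 1.15 ± 0.30 in Raptor KO CD4+ and CD8+ cells, all past the test. Bak1, Bcl2, Bid and Bad share exon bases with a gene on the opposite strand (Ggnbp1, D630008O14Rik, Bcl2l13 and Gpr137). Whether counting used strand is not given in the sources used here, so these 4 carry that uncertainty.

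**Figure D3:**
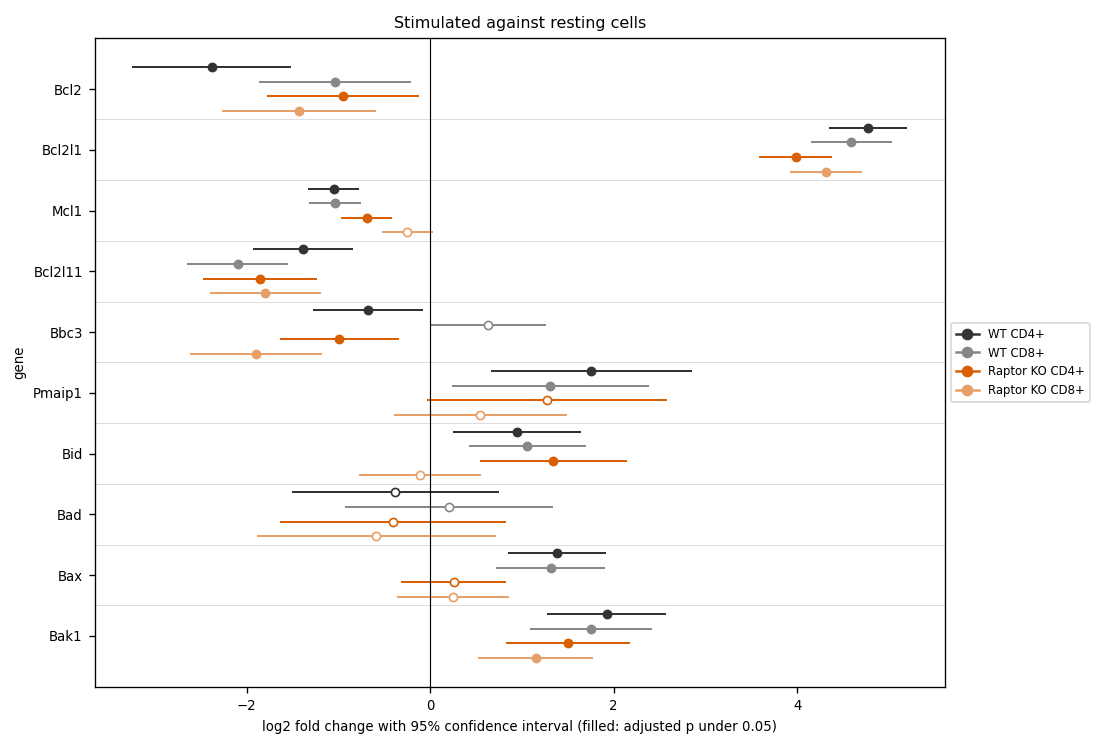
Log2 fold change of stimulated against resting cells with 95% confidence interval for each gene in WT and Raptor KO CD4+ and CD8+ cells; filled points passed the test (adjusted p under 0.05). Bcl2l1 lies at 3.98 to 4.78 in all 4 backgrounds, Bcl2 and Bcl2l11 lie below 0 in all 4, and Bbc3 lies on both sides of 0.

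Raptor KO changed few of these genes, and the ones called differed by subset. Among stimulated CD4+ cells 2 of 10 passed the test, Bcl2 upward and Bax downward, where 17.4% of all genes did (8.82% higher, 8.56% lower). Among stimulated CD8+ cells 3 passed, Bcl2l1 and Mcl1 upward and Bbc3 downward, where 11.7% of all genes did (6.3% higher, 5.42% lower). These comparisons use the same stimulated WT and Raptor KO groups as the stimulation comparisons above. The median over the 10 genes was -0.19 in CD4+ and -0.06 in CD8+ cells, against 0.04 and 0.03 over all genes.

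In stimulated CD8+ cells Bbc3 was lower in Raptor KO, at 5.02, 4.18 and 3.53 CPM against 12.6, 15.5 and 12.4 CPM in WT, which is 6, 8 and 9 counts against 32, 29 and 44. The groups were well separated, at -1.69 ± 0.33 (0.310-fold, adjusted p = 0.00045), and the call held in 14 of 14 alternatives. Bcl2l1 was higher, at 175, 213 and 192 CPM against 114, 111 and 134 CPM (0.69 ± 0.14, 1.62-fold, adjusted p = 0.00056). Mcl1 was higher too, at 137, 138 and 151 CPM against 98.9, 100.1 and 80.04 CPM (0.62 ± 0.13, 1.53-fold, adjusted p = 0.0014). No Raptor KO library overlapped a WT library for any of the 3 genes. Scaled to totals with Rn45s, which shifted the median of all genes in this comparison by -0.52, Bcl2l1 stood at 0.17 (adjusted p = 0.79) and Mcl1 at 0.12 (0.86), so both calls depend on the scaling. That scaling also turned the split of all called genes from 661 higher and 569 lower to 55 and 404, and that of the 10 from 2 and 1 to 0 and 1.

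Bid in stimulated Raptor KO CD8+ cells stood at 8.37, 7.32 and 16.9 CPM against 19.7, 17.7 and 19.2 in WT, below WT in 3 of 3 libraries but not past the test (-0.72 ± 0.28, adjusted p = 0.090). Without Raptor KO library 3 it was -1.29 with adjusted p = 0.013. Bax stood at 18.4, 17.3 and 15.7 CPM against 24.0, 21.4 and 27.4, also without overlap, with -0.54 ± 0.25 and adjusted p = 0.16. Bcl2 did not separate the genotypes here (-0.00 ± 0.39, with an interval from -0.83 to 0.83).

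In stimulated CD4+ cells Bcl2 stood at 107, 107 and 111 CPM in Raptor KO and at 50.0, 59.3 and 32.7 CPM in WT, a log2 difference of 1.21 ± 0.40 (2.31-fold, adjusted p = 0.047). The groups did not overlap, yet the adjusted p was close to the threshold. The call was lost without any 1 of the 6 libraries, with adjusted p of 0.084, 0.058 and 0.20 without WT library 1, 2 or 3, and 0.098, 0.098 and 0.093 without Raptor KO library 1, 2 or 3. It was lost too with median-ratio size factors (0.054), with no filter (0.11) and with Rn45s in the totals (0.19). Bax stood at 17.1, 20.0 and 20.3 CPM against 35.7, 26.3 and 38.8 CPM (-0.82 ± 0.24, 0.567-fold, adjusted p = 0.014), a call lost without WT library 3 (0.11) or Raptor KO library 1 (0.071). Bcl2l11 stood at 9.68, 13.8 and 14.2 CPM against 24.0, 32.1 and 13.5 CPM, with an overlap through WT library 3 (-0.83 ± 0.31, adjusted p = 0.068). Without that library it was -1.18 with adjusted p = 0.0054, and DESeq2 called it too (adjusted p = 0.042). Mcl1 stood at 131, 144 and 123 CPM in Raptor KO and at 115, 116 and 98.5 CPM in WT. These groups did not overlap, but the difference did not pass the edgeR test (0.27 ± 0.13, adjusted p = 0.16). Its sign was the same as in stimulated CD8+ cells. Scaled to totals with Rn45s, the median of all genes in this comparison moved by -0.50, the split of all called genes went from 925 higher and 898 lower to 67 and 617, and that of the 10 from 1 and 1 to 0 and 2.

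The same properties were compared between genotypes. The 5 T cell markers summed to 432 to 483 CPM in stimulated Raptor KO CD4+ libraries and 373 to 421 in WT, without overlap. In stimulated CD8+ libraries they summed to 317 to 369 CPM in Raptor KO and 349 to 382 in WT, with overlap. Mitochondrial rRNA took 10.8% to 15.7% of the counts outside Rn45s in stimulated Raptor KO CD8+ libraries and 7.20% to 10.1% in WT, without overlap, and 12.7% to 14.6% against 9.16% to 13.0% in CD4+ libraries. Protein-coding genes took 31.8% to 47.8% of the counts outside Rn45s in stimulated Raptor KO CD8+ libraries and 49.9% to 62.5% in WT, without overlap, and 33.4% to 46.5% against 38.9% to 63.6% in CD4+ libraries. The summed level of 6 myeloid marker genes was 35.3 to 43.5 CPM in stimulated Raptor KO CD4+ and 14.3 to 19.0 in WT libraries (2 of the 6 at 0 in each group, Itgam and Tyrobp in Raptor KO, Itgam and Lyz2 in WT). In stimulated CD8+ libraries it was 34.0 to 53.7 and 26.8 to 34.8 CPM (1 of the 6 at 0 in Raptor KO, Itgam, and 3 in WT, Itgam, Lyz2 and Tyrobp). Summed B cell markers (4 genes) stood at 2.85 to 12.4 CPM in stimulated Raptor KO CD4+ and 1.95 to 2.75 in WT libraries, and at 1.96 to 5.23 and 0.788 to 2.55 CPM in CD8+ libraries. The part of these differences in the results above was not tested.

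At rest none of the 10 genes passed the edgeR test between Raptor KO and WT, in CD4+ cells (0.143% of all genes called) or in CD8+ cells (1.12%). At an unadjusted p under 0.05 there was 1 in CD4+ cells, Bcl2l1, and there were 2 in CD8+ cells, Bcl2l1 and Bbc3. DESeq2 called 0 in both, with 0 and 2 at an unadjusted p under 0.05. Here and below the percentages of all genes are for the adjusted p. They are therefore no background for counts at an unadjusted p, for which no share of all genes is given. Resting Bbc3 in CD8+ cells stood at 12.2, 16.9 and 17.8 CPM in Raptor KO and 8.51, 7.39 and 9.76 in WT, without overlap (0.84 ± 0.32, adjusted p = 0.31), the opposite sign to the stimulated cells. The resting CD8+ groups did not overlap for Mcl1 (-0.17), Bcl2l11 (-0.42) and Pmaip1 (1.05) either, none of them past the test.

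Whether the stimulation effect differed between genotypes was tested as an interaction, the effect in Raptor KO minus that in WT cells. The interaction does not test a change of sign. In CD8+ cells 2 of the 10 genes passed (2.89% of all genes did, 1.7% higher and 1.19% lower), Bbc3 at -2.53 ± 0.47 (adjusted p = 0.00086) and Mcl1 at 0.79 ± 0.19 (adjusted p = 0.011). Bbc3 held in all 20 alternatives and Mcl1 in 17, and Mcl1 was lost with no filter (adjusted p = 0.13), with Rn45s totals (0.32, adjusted p = 0.88) and without stimulated WT library 3 (0.69, adjusted p = 0.055). In CD4+ cells 0 of 10 passed the edgeR test (5.82% of all genes did), with 3 at an unadjusted p under 0.05 (Bcl2, Bcl2l1 and Bax). DESeq2 also called 0 there, with 3 at an unadjusted p under 0.05. Bax came nearest, at -1.12 ± 0.39 (adjusted p = 0.074), and passed with no filter (adjusted p = 0.035) and with the library code as a block (0.041).

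Whether the Raptor KO effect itself differed between stimulated CD8+ and CD4+ cells was asked after the values above had been seen. edgeR called 0 of the 10 genes (0.334% of all genes), with 3 at an unadjusted p under 0.05, and DESeq2 called 0 with 3. These were Bcl2l1 at 0.73 ± 0.20 (adjusted p = 0.11), Bbc3 at -1.36 ± 0.47 (0.27) and Bcl2 at -1.21 ± 0.56 (0.52). The subset difference in which genes were called is therefore not shown by this test. Bcl2l1 passed it with protein-coding genes alone (adjusted p = 0.046), with the library code as a block (0.033) and without stimulated Raptor KO CD4+ library 3 (0.033).

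Rictor KO moved none of the 10 genes past the edgeR test in stimulated CD8+ cells, where 0.162% of all genes were called. At an unadjusted p under 0.05 there was 1, Bbc3, in edgeR and in DESeq2, which also called 0. Bbc3 stood at 3.17, 7.70 and 8.18 CPM in Rictor KO and 12.6, 15.5 and 12.4 CPM in WT, without overlap (-1.09 ± 0.28, 0.470-fold, adjusted p = 0.12, and 0.087 at the lowest among the alternatives). Bcl2l1 stood at 99.6, 108 and 90.5 CPM, just below the WT range of 111 to 134 CPM (-0.27 ± 0.14, adjusted p = 0.85). For the other 8 genes the groups overlapped, and the narrowest interval was that of Mcl1, from -0.24 to 0.29. No share of all genes without overlap is given, so the overlap counts have no background. All 3 Rictor KO libraries carry the library code StP219, which only the third library of the other groups carries, so code and genotype are partly confounded.

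**Figure D4:**
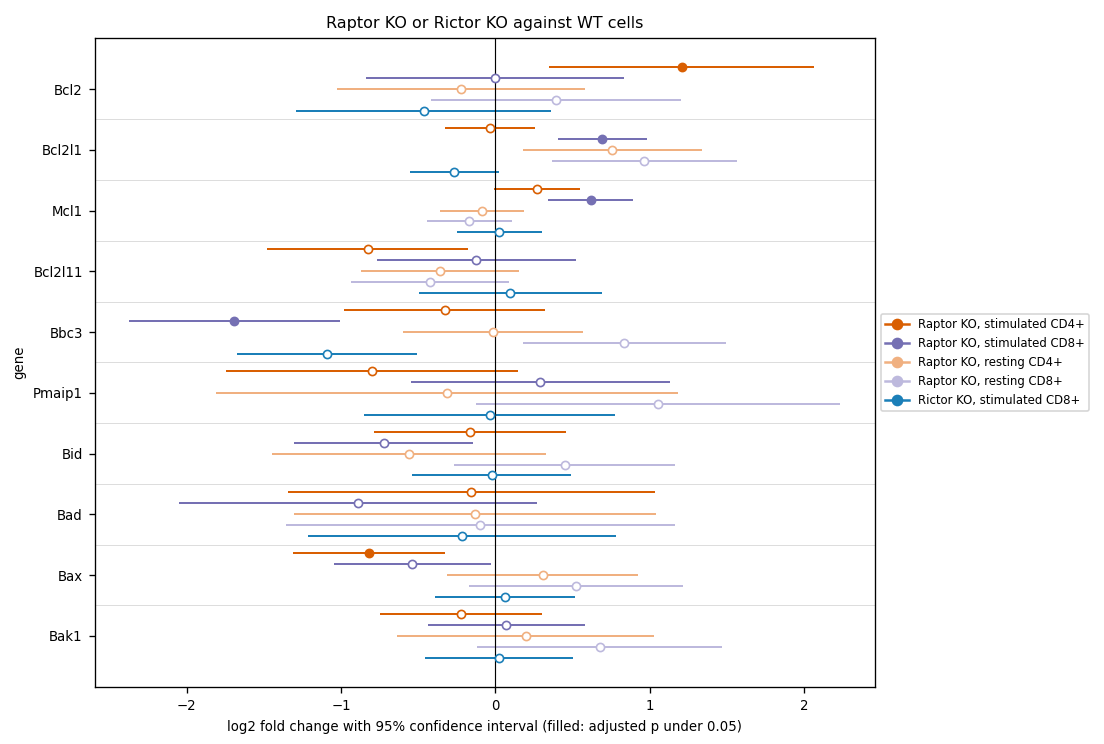
Log2 fold change of Raptor KO or Rictor KO against WT cells with 95% confidence interval for each gene; filled points passed the test (adjusted p under 0.05). Filled points are Bcl2 (1.21) and Bax (-0.82) in stimulated CD4+ cells and Bcl2l1 (0.69), Mcl1 (0.62) and Bbc3 (-1.69) in stimulated CD8+ cells; the Rictor KO interval of Bbc3 also lies below 0.

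Between CD8+ and CD4+ cells of the same genotype and culture few of these genes passed the test, as did few of all genes, so the counts say little about the family. In WT cells edgeR called 0 of 10 at rest (3.33% of all genes) and 0 of 10 after stimulation (5.18%), with 1 and 3 at an unadjusted p under 0.05. DESeq2 called 0 in both, with 1 in each at an unadjusted p under 0.05. The resting one was Bbc3, lower in CD8+ cells without overlap (log2 difference -0.81 ± 0.32, adjusted p = 0.20). After stimulation Bcl2 was 91.8, 119 and 61.7 CPM in CD8+ and 50.0, 59.3 and 32.7 CPM in CD4+ libraries, also without overlap (0.95 ± 0.40, 95% interval 0.10 to 1.79, adjusted p = 0.24).

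In Raptor KO cells 1 gene passed at rest (3.15% of all genes did, 1.65% higher) and 1 after stimulation (5.36%, 2.73% higher), both higher in CD8+ cells. Resting Bid stood at 10.4, 11.5 and 16.0 CPM in CD8+ and 4.01, 4.81 and 3.91 CPM in CD4+ libraries (1.51 ± 0.40, adjusted p = 0.022), on 17 to 18 against 5 to 9 counts. Resting Pmaip1 stood at 4.88, 4.73 and 3.57 CPM in CD8+ and 2.00, 1.07 and 0.782 CPM in CD4+ libraries, without overlap but on 1 to 8 counts and not past the test (1.74 ± 0.63, 95% interval 0.47 to 3.01, adjusted p = 0.16). After stimulation Pmaip1 gave 1.01 ± 0.47, again without overlap (adjusted p = 0.26). Stimulated Bcl2l1 stood at 175, 213 and 192 CPM in CD8+ and 128, 118 and 162 CPM in CD4+ libraries (0.51 ± 0.14, adjusted p = 0.021). Neither the Bid nor the Bcl2l1 groups overlapped, but the Bid call held in 7 of 14 alternatives and the Bcl2l1 call in 8 of 14. Bid was lost without any 1 of the resting CD4+ libraries (adjusted p of 0.084, 0.063 and 0.073) and without resting CD8+ library 2 (0.052) or 3 (0.13). Bcl2l1 was lost without stimulated CD4+ library 1 (0.12) or 2 (0.16) or stimulated CD8+ library 2 (0.13). The stimulation effect did not differ between WT CD8+ and CD4+ cells for any of the 10 in the edgeR test (0 called, 1.44% of all genes), with Bcl2 (1.34 ± 0.55) and Bbc3 (1.31 ± 0.42), 2 genes, at an unadjusted p under 0.05, and DESeq2 called 0 with 2.

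Across the 9 groups the order of levels separated rest from stimulation for some genes and not for others. For Bcl2l1 every stimulated group was above every resting one, with the highest mean of 193 ± 18.9 CPM in stimulated Raptor KO CD8+ cells and no overlap with the next, 139.5 ± 9.32 CPM in stimulated WT CD4+ cells. For Bcl2 the 4 resting means, 185 to 245 CPM, overlapped one another, and the lowest mean was 47.3 ± 13.5 CPM in stimulated WT CD4+ cells, which overlapped the 65.6 ± 9.33 CPM of Rictor KO. For Bbc3 every neighbouring pair in the order overlapped, from 15.6 ± 3.01 CPM in resting to 4.24 ± 0.749 CPM in stimulated Raptor KO CD8+ cells. The highest Bax means belonged to stimulated WT CD4+ (33.6 ± 6.51 CPM), Rictor KO (25.5 ± 1.74) and WT CD8+ cells (24.3 ± 3.02), and the stimulated Raptor KO groups (19.1 ± 1.77 and 17.1 ± 1.37) came next, below the WT CD8+ range.

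As a description over the 9 group means of log2 CPM, which share libraries and the contrast of rest and stimulation, Bcl2l1 ran with Bak1 (Pearson r = 0.983) and against Bcl2l11 (-0.972). Bcl2 ran with Mcl1 (0.867) and against Bak1 (-0.886). Bbc3 and Bad were least like the other members, with no r above 0.637 in size for Bbc3 and 0.572 for Bad. The protein-coding genes closest to each member by this measure were Mroh1 (0.988) for Bcl2, Hist1h4b (0.997) for Bcl2l1, Safb2 (0.995) for Mcl1, Bcl9l (0.988) for Bcl2l11, Srp9 (0.930) for Bbc3, Frrs1 (0.961) for Pmaip1, Fig4 (0.954) for Bid, Mettl14 (0.939) for Bad, Abhd17a (0.979) for Bax and Dpagt1 (0.998) for Bak1. The second closest were Ulk3 (0.986), Pabpc1 (0.996), Zbtb44 (0.990), Lck (0.987), Gpr108 (0.906), Fiz1 (0.956), Soat1 (0.937), Lrba (0.931), Slc19a2 (0.969) and Arhgap21 (0.996), in the same order.

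Of 14 other genes of the family, 6 could be tested. Stimulation raised 5 and lowered 1 of these in WT CD4+ cells, 4 and 1 in WT CD8+, 4 and 1 in Raptor KO CD4+ and 3 and 1 in Raptor KO CD8+ cells, where 64.9%, 62.8%, 52% and 55.6% of all tested genes were called. The gene that fell each time was Bnip3l, a mitophagy receptor, by 0.98 to 1.02 on the log2 scale, for example from 47.3 to 23.9 CPM in WT CD4+ cells. The pro-survival genes Bcl2l2, Bcl2a1b and Bcl2a1d rose in all 4 backgrounds, with Bcl2l2 going from 1.58 to 8.85 CPM in WT CD4+ cells. Bcl2a1b and Bcl2a1d are near-identical copies, so the split of reads between them is uncertain. Raptor KO changed 1 of the 6 in stimulated CD8+ cells (11.7% of all genes called), Bnip3, at 0.732 against 6.45 CPM (-3.33 ± 0.81, adjusted p = 0.0043), named after its value was seen.

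Of 19 caspases and mitochondrial death factors, 18 were tested, and stimulation raised 10 and lowered 3 in WT CD4+, raised 6 and lowered 4 in WT CD8+, raised 8 and lowered 2 in Raptor KO CD4+ and raised 7 and lowered 2 in Raptor KO CD8+ cells. The shares of all tested genes called were 64.9%, 62.8%, 52% and 55.6%, near those of the list. In stimulated CD4+ cells Raptor KO raised 3 and lowered 2 of the 18 (17.4% of all genes called). The lowered genes were Cycs, which encodes cytochrome c (13.8 against 26.5 CPM, -0.95 ± 0.25), and Aifm1 (15.3 against 25.4 CPM, -0.74 ± 0.23). In stimulated CD8+ cells, where 11.7% of all genes were called, Raptor KO raised 2, Birc2 again (46.5 against 17.7 CPM, 1.38 ± 0.20) and Xiap (84.4 against 53.4 CPM, 0.67 ± 0.16). Values with Rn45s kept in the totals are not given for these genes. That scaling moved the median of all genes by -0.50 in stimulated CD4+ and -0.52 in stimulated CD8+ cells.

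Of 19 upstream regulators, all tested, stimulation raised 12 and lowered 2 in WT CD4+ and raised 9 and lowered 4 in WT CD8+ cells. Raptor KO CD4+ cells had 8 higher and 3 lower, and Raptor KO CD8+ cells 9 and 3. These counts stand beside 64.9%, 62.8%, 52% and 55.6% of all tested genes called. Il2ra, the alpha chain of the IL-2 receptor, went from 11.7 to 651 CPM in WT CD4+ cells, while Il7r, the receptor chain for the cytokine in the resting cultures, went from 337 to 11.2 CPM. Il7r was also lower in resting Raptor KO than in resting WT CD8+ cells (141 against 397 CPM, -1.48 ± 0.35, adjusted p = 0.046). Between genotypes, Raptor KO raised 1 and lowered 2 in stimulated CD4+ cells and raised 2 and lowered 2 in stimulated CD8+ cells (17.4% and 11.7% of all genes called). Atf4, a stress-response factor downstream of mTORC1, was lower in both (124.6 against 292 and 159.5 against 368 CPM, -1.23 ± 0.17 and -1.21 ± 0.17). Rel, an NF-kB subunit, was higher in both (0.83 ± 0.14 and 1.01 ± 0.14). Nfkb1, another NF-kB subunit gene, was lower in stimulated Raptor KO CD4+ cells (242 against 350 CPM, -0.53 ± 0.14). Stat5a, which carries IL-2 and IL-7 signals, was higher in stimulated Raptor KO CD8+ cells (271 against 143 CPM, 0.92 ± 0.15). For these regulators too, values with Rn45s kept in the totals are not given. For Stat5a the difference of the Raptor KO effect between CD8+ and CD4+ cells itself passed the test (1.01 ± 0.21, adjusted p = 0.014).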

How the data were processed

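RNA was sequenced from 27 libraries of sorted mouse T cells. The deposited values are counts of reads per gene in 1 table for all libraries. STAR 2.6.0a and the build GRCm38 are named in the submitters' processing notes. How reads were assigned to genes, and whether by strand, is not given in the sources used here. Per the labels' protocols total RNA was fragmented, ligated to adaptors and amplified by PCR; no molecular identifiers are mentioned there, so counts are of reads. Of 26802 features, 26765 matched GENCODE M21 by gene ID, which gave symbols and exon lengths.

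Rn45s was left out of totals and tests because its share differs between libraries. Genes were kept by filterByExpr (minimum count 10, minimum total 15). edgeR 4.0.16 (R 4.3.3) fitted 1 mean per group over all 27 libraries with TMM scaling and the robust quasi-likelihood test, and p-values were adjusted by Benjamini-Hochberg over 10493 genes at 0.05. The common biological coefficient of variation was 0.187. Log2 fold changes carry SE = |log2 fold change| / √F. CPM use the TMM-scaled total of tested genes.

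Alternatives were DESeq2 1.42.0, median-ratio size factors in edgeR, no filter, a strict filter (over 5 CPM in 3 libraries), totals with Rn45s, protein-coding genes only, compared groups only, the library code as a block, and leaving out each library. The code follows the replicate number except in Rictor KO cells, whose libraries all carry StP219. The script was tested on simulated data. No 2 libraries of a group differed by as little as sampling noise. Same-numbered libraries of resting Raptor KO CD8+ and CD4+ cells deviated together (r of 0.171 to 0.333 over genes, all 3 pairs over 0.1), and the block changed no call there. In the other comparisons at least 1 pair did not (r of 0.1 or less). Same-numbered WT and Raptor KO libraries also share a library code, whose meaning the labels do not give. The 10 genes and the other lists were chosen with earlier results of these data known. All 10 were tested in every comparison, and values are given for the called ones and for some of the others. Where groups of a gene are said not to overlap, no share of all genes is given, so this has no background. From other lists at most the 3 called genes with the largest change and a mean of at least 10 CPM are named, and exceptions are stated. Bcl2l2, Bcl2a1b, Bcl2a1d and Bnip3 fall under that mean and were named after their values were seen.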

Additional observations from a re-analysis of the deposited data

Results flagged for a closer look

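The stimulation effect differed between Raptor KO and WT CD8+ cells for 2 of the 10 genes by a test of the difference itself. For Bbc3 the difference was -2.53 ± 0.47 on the log2 scale (edgeR, adjusted p = 0.00086), with WT at 0.63 and Raptor KO at -1.90, and the within-group values rested on 6 to 44 counts. For Mcl1 it was 0.79 ± 0.19 (adjusted p = 0.011), with WT at -1.04 and Raptor KO at -0.25. With 3 libraries a group, single libraries were not tested for standing apart.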

How the results depend on the processing

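No called result changed sign under any alternative run. Keeping Rn45s in the totals left 4 called genes for stimulation in Raptor KO CD4+ cells, 1 for Raptor KO in stimulated CD8+ cells, 1 for the interaction in CD8+ cells, and 0 for both subset comparisons of Raptor KO cells. Of all 10493 genes tested, those called fell too, from 5453 to 3261, from 1230 to 459 and from 303 to 38. For the subset comparisons they fell from 331 to 136 at rest and from 562 to 175 after stimulation. For the other alternatives no share of all genes is given, so their counts have no background. With no filter there were 0 for the subsets in stimulated Raptor KO cells and 1 each for the interactions in CD4+ and CD8+ cells. With compared groups alone both Raptor KO subset comparisons gave 0. Without a library, the counts ranged from 0 to 1 for Raptor KO in stimulated CD4+ cells, 0 to 1 for both Raptor KO subset comparisons, 1 to 3 for the interaction in CD8+ cells, and 0 to 1 for the Raptor KO effect between subsets; for stimulation they were 7 to 9, 6 to 8, 6 to 7 and 5 to 5 in WT CD4+, WT CD8+, Raptor KO CD4+ and Raptor KO CD8+ cells. The Raptor KO effect between subsets, chosen after seeing the data, gave 1 with protein-coding genes alone. With the library code as a block, the interaction in CD4+ cells gave 1 (Bax) and the Raptor KO effect between subsets 1 (Bcl2l1). The block changed no other call of the 10 genes. In comparisons other than that of the resting Raptor KO subsets, same-numbered libraries, which outside Rictor KO also share a library code of unstated meaning, did not all deviate together (r of -0.128 to 0.336). Each library correlated best with its own number only for stimulation in WT CD4+ cells and for the subsets at rest in WT and Raptor KO cells. Of 170 values, DESeq2 kept 168 on the same side of the threshold, the strict filter 170 and Rn45s totals 155. Depth limits Pmaip1 and Bad most, with median counts of 8 and 7 per library. The cause of these changes was not tested.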
